A study of Melitaea cinxia with 170 samples.

Results

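The comparison described here sets unflown male Glanville fritillary butterflies (Melitaea cinxia) from the Baltic island population AL (Åland) against those from PT (Pikku Tytärsaari). Its members are the butterflies labelled male and Control1h or Control20h, 4 from AL and 5 from PT, which makes 9 of the 85 butterflies in the series. Of the AL males, 2 were frozen at 1 h and 2 at 20 h. Of the PT males, 3 were frozen at 1 h and 2 at 20 h. All 9 were handled like the flown butterflies of the series but were not flown. The times count from the move to the flight conditions, and 20 h stands for the following morning. Each butterfly was an individual animal with 2 thorax libraries of different insert size, whose read counts were summed, so the butterfly is the replicate. The labels give no age, rearing history, extraction date or sequencing run. Any of these that followed the population cannot be told apart from the island. Whether butterflies share families is not given either, and relatives would not be fully independent replicates.

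The insect thorax carries the wings and is filled largely by flight muscle, among the most energy-demanding tissues known, together with cuticle, fat body, tracheae, nerve cells and blood cells. The Glanville fritillary lives on Åland in a large network of small meadow populations in which local extinction and recolonisation are frequent, and its flight capacity has been studied as a component of dispersal. Pikku Tytärsaari is a small, isolated island in the Gulf of Finland, and isolated populations can come to differ from others both by chance and by selection. Unflown males allow the islands to be compared without the flight treatment and within 1 sex.

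The gene models of the files carry project identifiers, and 0 of 16667 matched the reference table of gene names, so no name, role, sequence or position is given for any of them. The tissue label and the cell types in it were not checked against marker genes for the same reason. In whole-thorax RNA, fewer cells of a type and less RNA per cell cannot be told apart.

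Levels are given as CPM, read counts relative to the library total (the usual counts-per-million unit) after TMM scaling over all 85 butterflies, and are not corrected for gene length. The 9 males had 3166426 to 6361114 counts each. AL males averaged 5372140 ± 900601 counts (SD, n = 4) and PT males 4367790 ± 1228140 (n = 5), a difference that an exact 2-sided permutation test did not separate from the spread between males (p = 0.206, adjusted p = 0.31 over 3 measures). The 10 most abundant gene models took 33.3% ± 1.41 of the counts in AL males and 30.9% ± 2.08 in PT males (exact permutation p = 0.0873, adjusted p = 0.262). With 4 against 5 males, this test has few arrangements, which limits how small its p can be.

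At a common depth of 3166426 reads, 8801 ± 618 gene models had a read in AL males and 8800 ± 90.0 in PT males (exact permutation p = 1, adjusted p = 1). Within AL, the second male at 1 h stood apart, with 7891 gene models at that depth against 9007 to 9273 in the other AL males. Without that male, singled out by this same measure, the AL mean exceeded the PT mean by 305 gene models (exact permutation p = 0.0179, not adjusted). This p is the smallest that the test can give with so few males, and it follows removal of the lowest AL value. The test for a single far butterfly, given in a later section, did not flag that male on this measure. Leaving out any other male gave differences of -156 to 20 gene models. The second AL male at 1 h also had 31 tested gene models more than 4-fold below every other male, against 1 to 10 in each of the others, on the scale of CPM + 1. The number of calls in all 9 males, at 1 h and among the most abundant gene models, and the gene models without reads, are given below also without it. The principal components were not recomputed without it.

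A principal component analysis of the 9 males put the islands apart on its first component, which held 31.6% of the variance. AL males lay between 40.7 and 49.3 on it and PT males between -44.9 and -28.4. The second component held 16.7% and set the second AL male at 1 h, at -69.5, apart from the other 8 males, at -22.8 to 29.3. The spread among males of 1 island was similar on both islands, with a common biological coefficient of variation of 0.562 in AL and 0.524 in PT.

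The main test asked which gene models differed between the islands in these 9 males, with time as a covariate. It used edgeR's quasi-likelihood test, and a gene model was called at a Benjamini-Hochberg adjusted p under 0.05. Of 5917 gene models tested, 372 were called, or 6.29%. Of these, 215 were higher in AL (3.63% of those tested) and 157 were higher in PT (2.65%). The median size of a called difference was 2.37 on the log2 scale, and the called differences ran from 0.79 to 7.95. More than 2-fold differences made up 363 of the 372 calls, with 210 on the AL side and 153 on the PT side. Differences above 16-fold were found in 27 gene models in favour of AL and 32 in favour of PT.

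The split between the islands depends on the scaling. With library totals alone, without TMM factors, 384 gene models were called, 156 in favour of AL and 228 in favour of PT, and the median of all gene models moved by -0.19 on the log2 scale. All 372 gene models kept their direction under that scaling, but the larger share of calls then lay on the PT side. Without the second AL male at 1 h, 342 were called, with 200 in favour of AL and 142 in favour of PT, and 233 of them were among the 372. Without the first AL male at 20 h the count was 176, the lowest of the 9 such fits.

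**Figure D1:**
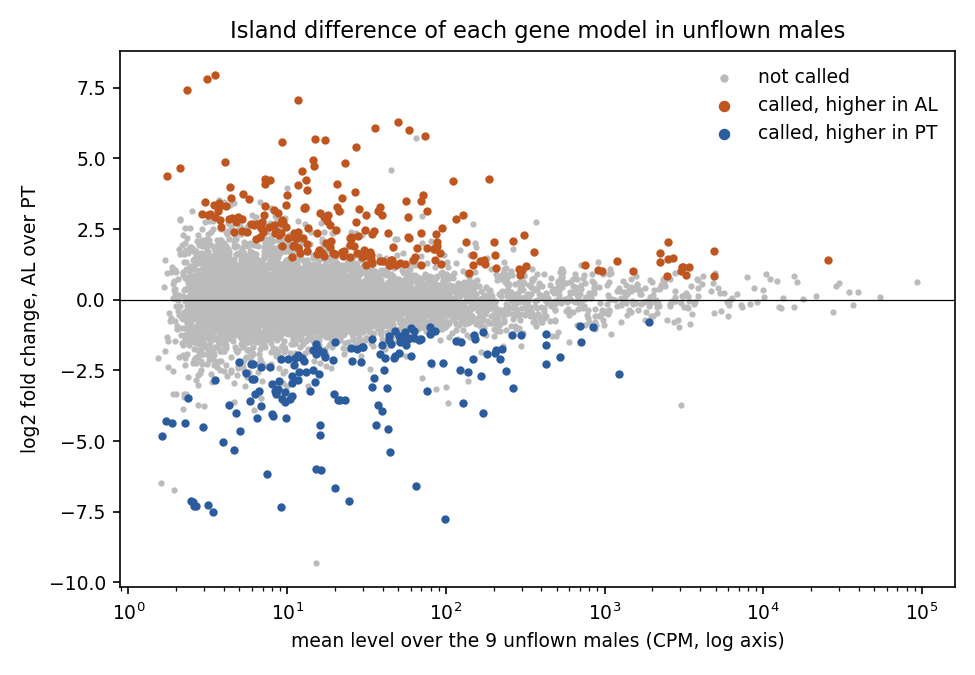
Log2 fold change of AL over PT males (vertical axis) against the mean level over the 9 unflown males (horizontal axis, CPM, log scale), 1 point per gene model tested. The 215 gene models called higher in AL and the 157 called higher in PT lie on both sides at all levels up to about 500 CPM, and above it 19 lie on the AL side and 6 on the PT side.

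Calls were made at every level of abundance. Among gene models with a mean under 5 CPM, 3.51% of 1226 were called, with a median size of 3.72 on the log2 scale. Between 5 and 50 CPM, 6.21% of 3396 were called, with a median size of 2.55. Between 50 and 500 CPM, 9.12% of 1020 were called, 47 in favour of AL and 46 of PT, with a median size of 1.73. Above 500 CPM, 9.09% of 275 were called, with a median size of 1.17. The share called was lowest and the median size largest among the lowest gene models.

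The called gene models took a different share of the males' reads on each island. Those higher in AL held 8.76% to 9.75% of the counts in AL males and 3.08% to 4.74% in PT males. Those higher in PT held 0.442% to 0.534% in AL males and 1.42% to 2.13% in PT males. These shares describe gene models chosen by the same values and are no separate test.

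The groups did not overlap in most of the called gene models. Over all 5917, every AL male was above every PT male in 326 gene models (5.51%), and every PT male was above every AL male in 345 (5.83%). Among the 215 called higher in AL this was so in 183, and among the 157 called higher in PT in 140. In the other 49 called gene models at least 1 male lay within the range of the other island.

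The largest difference in favour of AL, among called gene models with a mean of at least 5 CPM, was that of MCINXTMP_006482. Its level in AL males was 26.2 and 27.0 CPM at 1 h and 17.1 and 33.2 CPM at 20 h. In PT males it was 0.396, 0 and 0 CPM at 1 h and 0.597 and 0 CPM at 20 h. It was thus read in every AL male and in 2 of 5 PT males, with no overlap. The log2 fold change was 7.05 ± 0.78 (SE; edgeR adjusted p = 0.000214). Only 3 reads in all came from PT males against 423 from AL males, a ratio of 161 per scaled total with an exact 95% interval of 54.6 to 782 that covers counting error only.

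MCINXTMP_006156 came next. In AL males it stood at 139 and 183 CPM at 1 h and at 29.2 and 88.8 CPM at 20 h. In PT males it stood at 2.37, 0.673 and 0.732 CPM at 1 h and at 1.49 and 1.42 CPM at 20 h. Its AL males varied over a wide range, but the lowest of them was still above the highest PT male. Its log2 fold change was 6.30 ± 0.54 (SE; edgeR adjusted p = 3.08e-05).

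The largest difference in favour of PT was that of MCINXTMP_010661. In AL males its level was 0.262 and 1.67 CPM at 1 h and 1.16 and 0 CPM at 20 h. In PT males it was 41.6, 362 and 65.6 CPM at 1 h and 124 and 293 CPM at 20 h. The PT males ranged widely, and none came near an AL male. On the log2 scale the fold change was -7.77 ± 1.05 (SE; edgeR adjusted p = 0.0031). In limma voom the fold change was -8.00 with an adjusted p of 0.0597, which missed the threshold.

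MCINXTMP_009690 was the second in that direction. It had 1 read, or 0.262 CPM, in the first AL male at 1 h and none in the other 3 AL males. In PT males its level was 11.9, 21.9 and 24.4 CPM at 1 h and 13.7 and 10.3 CPM at 20 h. The log2 fold change was -7.33 ± 0.82 (SE; edgeR adjusted p = 0.000216). The ratio of 299 reads in PT to 1 read in AL was 262 per scaled total, with an exact 95% interval of 46.7 to 10396.

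**Figure D2:**
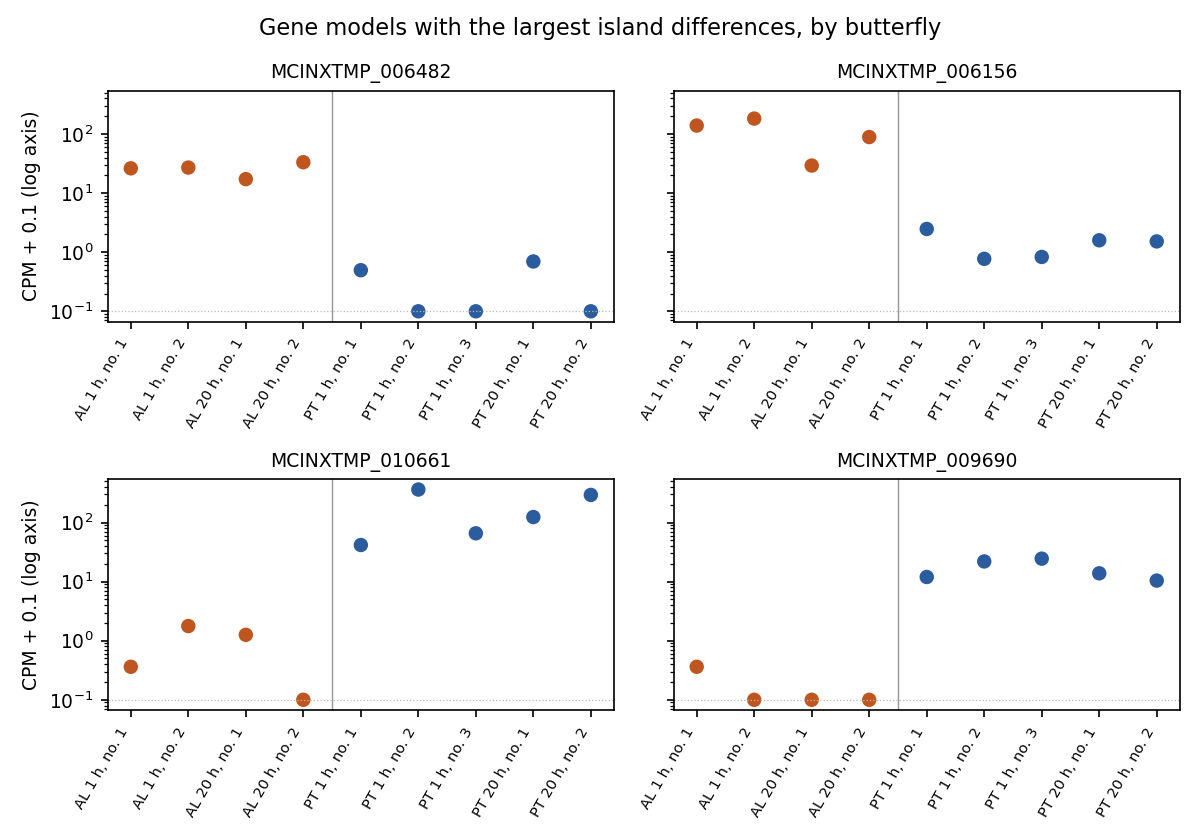
Level of the 4 gene models with the largest island differences in each of the 9 unflown males (vertical axis, CPM plus 0.1, log scale), with AL males in orange to the left and PT males in blue to the right of the line. Points on the dotted line had no read. In each panel all males of 1 island lie above all males of the other.

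Among the 100 most abundant gene models of the 9 males, which had means of 2154 CPM or more, 14 were called and all 14 were higher in AL. In this fit none of the 100 was called higher in PT. Over all 5917 gene models 6.29% were called, and 9.09% of those above 500 CPM. In the whole list of 100, 63 had a positive log2 fold change, and the median was 0.22, against -0.00 over all 5917 gene models. With library totals alone, 52 of 100 were positive and the median was 0.03, against -0.20 over all. In unflown females 48 of the 100 were positive, with 12 called in favour of AL and 9 of PT, and in flown males 50 were positive, with 18 and 13 called. Over all gene models tested in these 2 sets, 15.9% and 21.2% were called. The calls of this group in unflown males also depended on the settings. With library totals alone 11 called gene models favoured AL and 4 favoured PT, with 14 and 2 in DESeq2 and 16 and 2 in limma voom. In edgeR with TMM scaling, 19 and 3 were called without the count filter, 16 and 2 without the time covariate and 13 and 2 from the 650 nt libraries. The number called fell to 6 without the first AL male at 20 h, and without the second AL male at 1 h it was 9, of which 8 were higher in AL.

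MCINXTMP_010392 had the largest fold change of these 14. In AL males it stood at 2964 and 6488 CPM at 1 h and at 5098 and 2422 CPM at 20 h. In PT males it stood at 2083, 780 and 1191 CPM at 1 h and at 899 and 731 CPM at 20 h. The highest PT male was close below the lowest AL male. Its log2 fold change was 2.04 ± 0.36 (SE; edgeR adjusted p = 0.00593).

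MCINXTMP_009362 was more even within the islands. Its AL males had 5576 and 8879 CPM at 1 h and 9060 and 7865 CPM at 20 h. Its PT males had 2429, 2484 and 3086 CPM at 1 h and 2734 and 1597 CPM at 20 h. The groups were well apart, at 7845 ± 1602 CPM (SD, n = 4) in AL and 2466 ± 551 CPM (SD, n = 5) in PT. Its log2 fold change was 1.73 ± 0.26 (SE; edgeR adjusted p = 0.00197).

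The most abundant called gene model, MCINXTMP_009327, was singled out after its values were seen. Its level was 38925 ± 10855 CPM (SD, n = 4) in AL males, from 25010 to 51427. In PT males it was 14760 ± 5550 CPM (SD, n = 5), from 7338 to 20102, so the groups did not overlap. The log2 fold change was 1.41 ± 0.33 (SE; edgeR adjusted p = 0.0238), and 5 of the 9 fits that left out 1 male missed the threshold, with fold changes of 1.26 to 1.42.

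**Figure D3:**
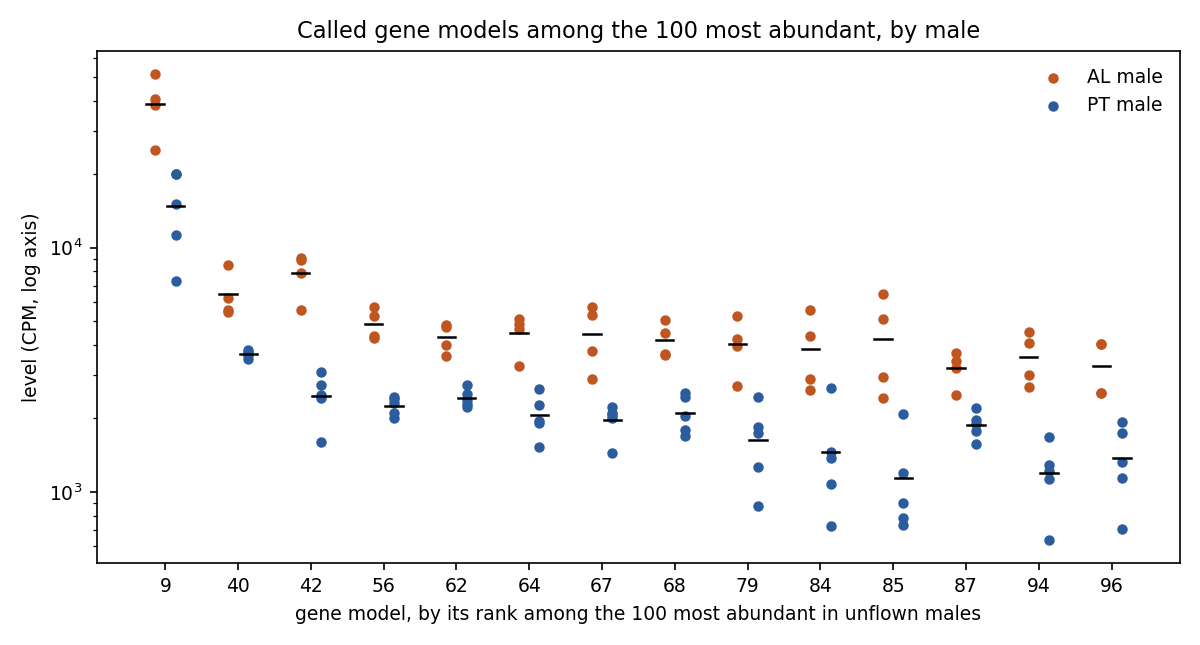
Level of the 14 called gene models among the 100 most abundant in each unflown male (vertical axis, CPM, log scale), ordered by rank of abundance, with AL males in orange, PT males in blue and group means as black bars. In 13 of the 14 every AL male lies above every PT male.

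Time was examined next, since the males were frozen at 1 h or 20 h. At 1 h alone, 2 AL against 3 PT males, 63 gene models were called (1.06% of 5917), 38 of them in favour of AL and 25 of PT. Without the second AL male at 1 h, which left 1 AL male at that time, assumed to vary like the other groups, 44 were called, 30 of them among the 63. At 20 h alone, 2 against 2 males, 55 were called (0.93%), 33 of them in favour of AL and 22 of PT. Of the 63, 62 had the same direction at 20 h, and of the 55, 53 had the same direction at 1 h, where over all gene models tested the direction was the same in 66.6%. The males at 1 h and at 20 h are different animals, but both tests share 1 estimate of the spread. Both time points called 27 gene models, which is less than either list.

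No gene model passed edgeR's test of the difference between the island effects at 20 h and at 1 h (0%), with 242 at an unadjusted p under 0.05 and a lowest adjusted p of 0.068. DESeq2 called 11 and limma voom 2. For the 372 gene models the median SE of this difference was 0.93 on the log2 scale. Island effects that differ between 1 h and 20 h could go uncalled at that precision. The effect of time itself, 20 h against 1 h, was called in no gene model by edgeR (0%, with 246 at an unadjusted p under 0.05), in 3 by DESeq2 and in 0 by limma voom. Both unadjusted counts, 242 and 246, are below the average that this limit would pass among 5917 gene models without any effect.

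The same island contrast was available in animals that took no part in the choice of these gene models: 17 unflown females (8 AL, 9 PT) and 23 flown males (11 AL, 12 PT). In unflown females 926 of 5833 gene models were called (15.9%), and in flown males 1212 of 5704 (21.2%). Of the 372 gene models of unflown males, 331 were tested in unflown females, and the other 41 did not pass the filter on low counts there. Of the 331, 318 had the same direction and 207 were also called in that direction. None was called in the opposite direction. The direction was the same in 70.9% of all 5471 gene models tested in both.

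In flown males 329 of the 372 were tested. Of these, 312 had the same direction, 233 were called in it and none was called in the opposite one. Over all 5458 gene models tested in both, the direction was the same in 69.3%. The shared calls made up 55.6% of the list of unflown males and 22.4% of that of unflown females, and 62.6% of the list of unflown males and 19.2% of that of flown males. In all, 174 gene models were called in the same direction in all 3 sets, 108 in favour of AL and 66 in favour of PT.

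The sizes of the differences went together across these gene models. Pearson's r between the log2 fold changes was 0.90 for unflown females, over 331 gene models, and 0.89 for flown males, over 329. Over all gene models tested in both, r was 0.68 and 0.68. These values describe gene models, which are not independent replicates. The median difference of the called gene models was 2.21 in unflown males and 1.37 in the same direction in unflown females, and 2.20 against 1.36 for flown males. The male values chose these gene models, so their larger median is not a comparison of the sexes or of flight.

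By size, and among those tested in the other set, gene models with the largest differences in unflown males were called there most often. Of the 33 tested in unflown females with more than a 16-fold difference, 27 were called there in the same direction, or 81.8%. The share was 65.2% of 161 with a 4- to 16-fold difference, 56.2% of 128 with a 2- to 4-fold difference and 3 of 9 below 2-fold. In flown males the shares were 85.3% of 34, 72.8% of 158 and 64.8% of 128, and 6 of 9. Of the 59 called above 16-fold, 26 were not tested in unflown females and 25 not in flown males. Between 4- and 16-fold, 15 and 18 of 176 were not tested, and below 4-fold 0. Counting the untested, the order was not kept. In unflown females 27 of 59, 105 of 176 and 72 of 128 were called, and in flown males 29, 115 and 83.

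**Figure D4:**
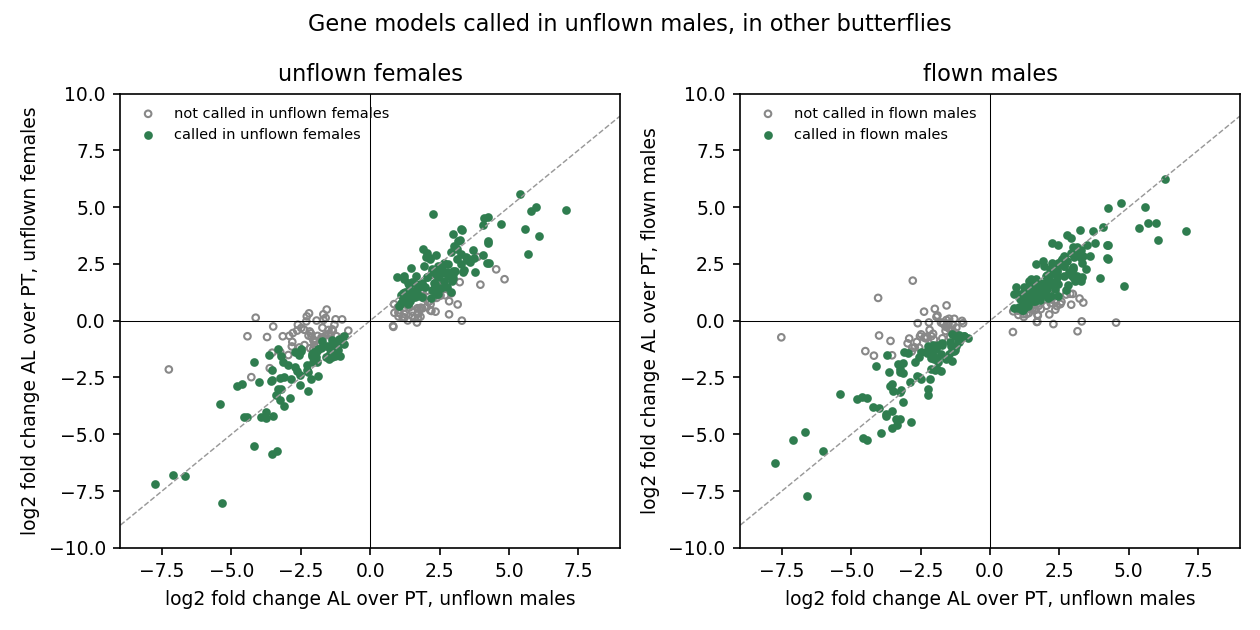
Log2 fold change of AL over PT in unflown females (left) and flown males (right), on the vertical axes, against that in unflown males, on the horizontal axes, for gene models called in unflown males. Filled points were called in the other set, 207 on the left and 233 on the right, and all of them lie in the quadrants where both signs are the same. The dashed line marks equal values.

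The 4 gene models with the largest differences kept that order of the islands in other animals. MCINXTMP_006482 had a median of 32.1 CPM in AL unflown females (0.404 to 52.7, n = 8) and 0 CPM in PT unflown females (0 to 6.05, n = 9). In flown males its median was 14.6 CPM in AL (0 to 40.2, n = 11) and 0.213 CPM in PT (0 to 3.80, n = 12). The log2 fold changes were 4.87 ± 0.97 and 3.93 ± 0.79 (SE; edgeR adjusted p = 0.00204 and 0.000608). Unlike in unflown males, the lowest AL animal of either set lay within the PT range.

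MCINXTMP_006156 behaved likewise. Its median was 46.0 CPM in AL unflown females (0.404 to 181, n = 8) and 0.657 CPM in PT ones (0 to 1.51, n = 9), where it was below the filter on counts of the main fit and not tested. In flown males its median was 110 CPM in AL (0.896 to 523, n = 11) and 0.728 CPM in PT (0 to 8.95, n = 12) (log2 fold change 6.22 ± 0.92 SE; edgeR adjusted p = 3.7e-05). At least 1 AL animal of each set thus lay within the PT range.

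MCINXTMP_010661 was apart in every set. Its median was 0.28 CPM in AL unflown females (0 to 3.37, n = 8) and 117 CPM in PT ones (14.9 to 226, n = 9) (log2 fold change -7.18 ± 0.73 SE; edgeR adjusted p = 2.04e-06). In flown males it was 1.53 CPM in AL (0 to 5.61, n = 11) and 71.9 CPM in PT (34.8 to 409, n = 12) (log2 fold change -6.27 ± 0.63 SE; edgeR adjusted p = 1.35e-07). No AL animal of either set reached the lowest PT animal.

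MCINXTMP_009690 did not pass the filter on low counts in the other sets and was not tested there. Its reads were absent in 7 of 8 AL unflown females, with a highest level of 0.135 CPM, and in 3 of 9 PT unflown females, whose median was 7.73 CPM and highest 23.5 CPM. Among flown males it had no read in 7 of 11 AL males, with a highest level of 7.46 CPM, and in 2 of 12 PT males, whose median was 14.6 CPM and highest 36.0 CPM. PT animals without a read were thus seen outside the unflown males, where all 5 PT males had at least 30 reads.

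The gene lists called in unflown females were also read in each unflown male, as the median of log2(CPM + 1) minus the midpoint of the island means. For the 542 gene models higher in AL in unflown females, the AL males had medians of 0.58 and 0.43 at 1 h and 0.63 and 0.65 at 20 h. The PT males had -0.44, -0.61 and -0.50 at 1 h and -0.53 and -0.74 at 20 h. For the 384 gene models higher in PT in unflown females, AL males ran from -0.47 to -0.44 and PT males from 0.27 to 0.72. The islands did not overlap in either list, and over all 5833 gene models tested in unflown females the medians of the males lay between -0.06 and 0.12.

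**Figure D5:**
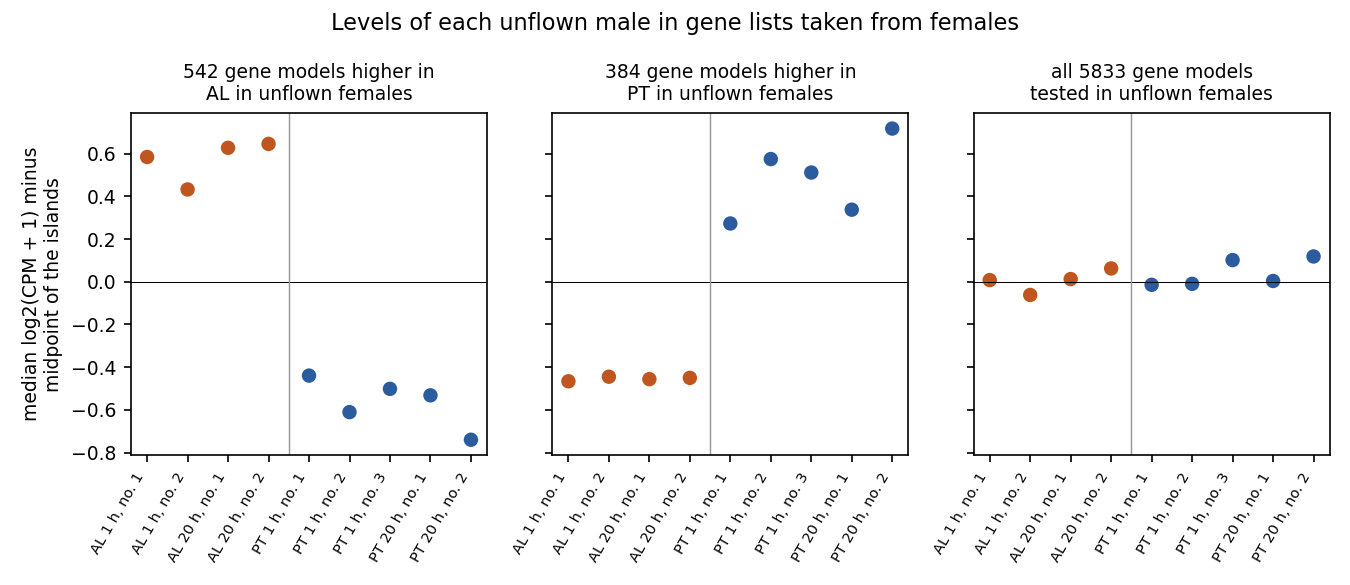
Median over gene models of log2(CPM + 1) minus the midpoint of the island means (vertical axes) for each unflown male, with AL males in orange and PT males in blue. The panels show the 542 gene models higher in AL and the 384 higher in PT in unflown females, and all 5833 tested there, where the males lie between -0.06 and 0.12. The midpoint is that of the same males, and the last panel mixes both directions, which can cancel in a median.

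Whether the island effect itself differed was tested directly. The island effect in unflown males minus that in unflown females was called in none of 7693 gene models by edgeR (0%), with 481 at an unadjusted p under 0.05 and a lowest adjusted p of 0.386. DESeq2 called 7 and limma voom 0. The island effect in unflown minus flown males was called in none of 8030 (0%), with 596 at an unadjusted p under 0.05 and a lowest adjusted p of 0.178. Here DESeq2 called 28 and limma voom 0. The median SE of these differences over the 372 gene models was 0.71 and 0.68 on the log2 scale, and island effects that differ between the sets could likewise go uncalled.

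Of the 316 gene models of unflown males that were tested in both other sets, 66 were called in neither. The direction was opposite in 13 of the 331 tested in unflown females and in 17 of the 329 tested in flown males. In 4 gene models the fitted fold change was opposite in sign in both. These 4 were picked out after their values were seen, and in both other sets none of them was called. MCINXTMP_005827 and MCINXTMP_002541 were higher in AL in unflown males, and MCINXTMP_002376 and MCINXTMP_004268 were higher in PT.

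MCINXTMP_002376 had levels of 8.91 and 8.07 CPM at 1 h and 30.4 and 19.5 CPM at 20 h in AL unflown males. In PT unflown males it had 59.4, 45.1 and 40.0 CPM at 1 h and 84.2 and 48.6 CPM at 20 h, all above the AL males. The log2 fold change was -1.93 ± 0.38 (SE; edgeR adjusted p = 0.0111). In unflown females it was 0.01 ± 0.29 and in flown males 0.17 ± 0.25 (SE), values near 0, with means of 34.1 and 34.3 CPM in AL and PT females. The differences of the island effects were -1.86 ± 0.48 against females and -1.92 ± 0.49 against flown males (SE; edgeR adjusted p = 0.399 and 0.231), which did not pass the test.

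For the other 3 the fold changes in unflown males were 1.69 ± 0.40 for MCINXTMP_005827, 0.83 ± 0.22 for MCINXTMP_002541 and -1.57 ± 0.43 for MCINXTMP_004268 (SE; edgeR adjusted p = 0.0252, 0.0429 and 0.0459). In unflown females they were -0.08, -0.23 and 0.49, and in flown males -0.06, -0.50 and 0.67, none of them called. Each of these 3 calls was lost in at least 7 of the alternatives. None of the differences of island effects passed the test for them either, the lowest adjusted p being 0.231.

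Some gene models had no read at all in the males of 1 island. Of 16667 gene models in all, 4602 had no read in the 5 PT males and 4610 had none in the 4 AL males. Among these, 1319 and 1327 had a read in at least 1 male of the other island. With 1 or more reads in all 4 AL males and none in the 5 PT males there were 28, with AL means of 0.711 to 12.1 CPM and a median of 1.76 CPM. With reads in all 5 PT males and none in the 4 AL males there were 21, with PT means of 0.441 to 27.2 CPM and a median of 1.83 CPM. A count of 0 over the group allows up to 0.162 CPM in PT and 0.184 CPM in AL, 3 reads of the scaled totals. Without the second AL male at 1 h, a setting added after the data were seen, the counts were 93 in place of 28 and 33 in place of 21. Leaving out any AL male can only keep or raise both counts. No other male was left out for them, so the rise cannot be credited to this male. These gene models were chosen by their values in these males and their counts are a description.

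The absence did not extend to the other animals for most of them. Of the 28, 3 also had no read in any PT unflown female and 4 had none in any PT flown male, with 1 in common. Of the 21, 2 had no read in any AL unflown female and 1 had none in any AL flown male. The order of the island means was kept more often. It was the same in 26 of the 28 in unflown females and in 23 in flown males, and in 20 and 17 of the 21.

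Of the gene models without reads on 1 island, those with the highest mean on the other were read unevenly among its males. MCINXTMP_010010 had no read in PT males and stood at 21.5 and 0 CPM at 1 h and 44.7 and 50.1 CPM at 20 h in AL males. The AL mean was at least 180-fold higher than in PT, taking the limit of 3 reads over the PT group. The gene model did not pass the filter on low counts in unflown males, so this difference was not tested. The male without a read was the second at 1 h, the one that stood apart above. In unflown females the same gene model differed by 5.67 ± 1.25 on the log2 scale (SE; edgeR adjusted p = 0.00513), with medians of 75.0 CPM in AL and 0.682 CPM in PT. In flown males it was not tested. Its medians there were 0.467 CPM in AL and 0 CPM in PT, with no read in 4 of 11 AL and 10 of 12 PT males.

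MCINXTMP_001161 was read in 1 unflown male alone, the second AL male at 1 h, with 215 reads or 59.8 CPM. In the other direction, MCINXTMP_009760 had no read in AL males and stood at 1.58, 120 and 5.37 CPM at 1 h and 4.78 and 4.45 CPM at 20 h in PT males. Its log2 fold change did not pass the test (edgeR adjusted p = 0.0803), and the second PT male at 1 h held 356 of its 423 reads. In other animals it was read in all 9 PT unflown females, with a mean of 3.24 CPM, and in 1 of 8 AL unflown females. Its mean in flown males was 4.36 CPM in PT and 0.857 CPM in AL. The second PT male at 1 h also held 171 of the 176 reads of MCINXTMP_010667, at 57.5 CPM, with 0.889 CPM in the second PT male at 20 h and no read in the other 7 males. The reads of MCINXTMP_001161 and MCINXTMP_010667 were thus nearly all those of single males.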

How the data were processed

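Thorax RNA of 85 butterflies was sequenced, per the labels' protocols, as strand-specific polyA-anchored libraries of 2 average insert sizes (450 and 650 nt). CASAVA 1.8, TopHat2 2.0.5 and edgeR are named, without their roles, per the submitters' processing notes. Build, annotation and read counter are each not given in the sources used here, so reads of overlapping or near-identical genes may be split. The authors deposited raw read counts per gene model for 170 libraries. They also deposited a normalized signal table of 8258 gene models, which equalled the summed counts times 1 factor per butterfly in 100% of values (tolerance 0.0006 plus 1e-06 of the value) and served as that check and as an alternative gene list.

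Counts of both libraries were summed per butterfly, giving totals of 1820059 to 6944328. The 9 unflown males were fitted alone with edgeR 4.0.16 (R 4.3.3, robust quasi-likelihood F test, TMM, filterByExpr over population with a minimum count of 10, time as covariate). The 5917 gene models kept held 99.6% of their counts. Benjamini-Hochberg adjustment ran over all gene models tested, with calls under 0.05. Fold changes are AL over PT, and each SE was derived as |log2 fold change| / sqrt(F). Contrasts by time came from a fit of the 4 population by time cells, and differences between sets from joint fits of the 26 unflown butterflies and the 32 males. Principal components used log2 CPM with a prior count of 2. Alternatives used DESeq2 1.42.0, limma 3.58.1 (voom), other scalings and filters, each insert size alone, a fit of all 85 butterflies, and leaving out butterflies in turn. The procedure was tested on simulated data.

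Gene models named are the 2 called ones with the largest fold changes in each direction, with a mean of at least 5 CPM and the same direction at both times, the same for the 100 most abundant without these limits, and for those without a read on 1 island the 2 of highest mean on the other. Others were picked after their values were seen, as stated. The comparison, rules and tests were chosen with earlier results of these data known. P-values cover the spread between butterflies as each fit estimated it, and intervals and limits of 3 reads cover counting error only.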

Additional observations from a re-analysis of the deposited data

Results flagged for a closer look

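In all, 34 groups of males were tested for a single butterfly far from the rest. How often chance alone flags a group is not known here, because some groups hold mostly levels of 0 CPM. MCINXTMP_001161, MCINXTMP_009760 and MCINXTMP_010667 were named for a high mean, which 1 male can carry, so their flags follow in part from that choice. The second PT male at 1 h was far above the other PT males in MCINXTMP_009760, at 120 CPM against 1.58 to 5.37 CPM, and in MCINXTMP_010667, at 57.5 CPM against 0 to 0.889 CPM. The second AL male at 1 h was the only AL male with reads of MCINXTMP_001161, at 59.8 CPM. The first AL male at 1 h, at 0.262 CPM or 1 read, was the only AL male with a read of MCINXTMP_009690. The first PT male at 20 h had 8643 gene models with a read at the common depth, against 8822 to 8873 in the other PT males. What lies behind these values was not tested.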

How the results depend on the processing

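No paired analysis was possible because the labels give no replicate numbers shared between the islands. All of the 372 calls that were tested kept their direction in every alternative. In the main fit 372 of 5917 tested were called. The number called was 764 of 8132 tested with DESeq2 and 791 of 13384 without the count filter. From the 450 nt libraries it was 196 of 4317 and from the 650 nt libraries 224 of 4846. With 1 male left out it was 176 to 342. At 1 h it was 294, 315 and 38 (450 nt) against 63, and 18 to 70 with 1 male left out, the lowest without the third PT male. At 20 h it was 236, 270, 35 (450 nt) and 32 (650 nt) against 55, 10 in the fit of all 85 butterflies, and 11 to 95 with 1 male left out, the lowest without the second PT male at 20 h and the highest without the second AL male at 1 h. The difference between times went from 0 to 11 with DESeq2, 2 with voom, 14 without the filter, 1 with the authors' gene list, 1 from the 650 nt libraries and 0 to 2 with 1 male left out. The effect of time went from 0 to 3 with DESeq2 and 56 without the filter, and stayed 0 with 1 male left out. In unflown females the count was 1660 with DESeq2, 595 and 472 from the 450 and 650 nt libraries, 1553 in the fit of all 85 and 740 to 920 with 1 left out. In flown males it was 1952 with DESeq2, 1963 without the filter, 719 and 806 by insert size, 1861 in the fit of all 85 and 1181 to 1317 with 1 of the 5 AL males at 20 h left out. The differences between sets went from 0 to 7 (females) and 28 (flown males) with DESeq2 and to 2 (flown males) from the 450 nt libraries, and were 0 with each of the 26 unflown butterflies left out (females) and with each of 14 of the 32 males left out (flown males). With up to 1 read allowed in all, 46 gene models in place of 28 were without reads in PT males and 47 in place of 21 in AL males. Without the second AL male at 1 h these were 93 and 33, in a setting chosen after seeing the data that could only keep or raise both counts.

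The difference in the share of the 10 most abundant gene models was 1.87 points from the 450 nt libraries (exact permutation p = 0.0317, not adjusted). From the 650 nt libraries it was 1.76 points (exact permutation p = 0.317, not adjusted). With 1 male left out it was 1.55 to 2.99 points. The difference in total counts ran from 674699 to 1469672 and that in gene models detected from -156 to 305. No named gene model reversed in 249 refits, and 37 of them lost a call. The cause of these changes was not tested.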

Other observations

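One abundant gene model stood out for its spread within 1 island and was picked after its values were seen. MCINXTMP_003343 had the largest fold change, -3.74 ± 1.05 (SE), among gene models with a mean of at least 1000 CPM that were not called in unflown males (edgeR adjusted p = 0.072). Without the count filter its SE fell to 0.32 and its edgeR adjusted p to 6.14e-30, a precision that the wide spread of the PT males below does not bear out. The other alternatives gave adjusted p-values from 0.00497 in DESeq2 to 0.29 in edgeR without the second PT male at 20 h. AL males were close together, at 474 and 358 CPM at 1 h and 306 and 293 CPM at 20 h. PT males stood at 444, 2247 and 9642 CPM at 1 h and at 478 and 12831 CPM at 20 h, so that 2 of 5 lay within the range of AL males or just above it and 3 lay far above. The same was seen in other animals. The 36 other AL butterflies had a median of 354 CPM, with extremes of 153 and 707 CPM. The 40 other PT butterflies had a median of 2625 CPM, with extremes of 168 and 22689 CPM, and 21 of them were above the highest AL butterfly of the series while 19 were not. The island difference was called in unflown females (-3.38 ± 0.94, edgeR adjusted p = 0.022) and in flown males (-3.52 ± 0.67, edgeR adjusted p = 0.000551). What separates PT butterflies at the AL level from the others was not tested.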
